A study of Homo sapiens with 6 samples.

Results

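The genes of the proteasome were followed in MiaPaCa-2 cells deprived of glucose. A gene was a member when it was protein-coding, its symbol began with PSMA, PSMB, PSMC, PSMD or PSME followed by a digit, and its mean over the 6 libraries was at least 20. The rule found 43 of the 60668 genes in the table, out of 45 with such a symbol at any level. No fold change or p-value entered the rule. Of the 43, 41 encode subunits, base assembly chaperones or activators of the proteasome and were placed in 7 classes, and the other two, PSMC3IP and PSME3IP1, encode proteins named after a subunit or activator that they bind. The genes below the minimum were PSMA8, the germline alpha subunit, with no read in any library, and PSMB11, the thymic catalytic subunit, with a mean of 0.661. The lowest genes above it were PSMB9 and PSMB10, with means of 41.7 and 44.8.

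MiaPaCa-2 is an established human pancreatic cancer line with wild-type IDH1, so all libraries come from 1 line. RNA was sequenced after 48 h in medium with 2.5 mM glucose (low glucose, 3 libraries) or 25 mM glucose (control, 3 libraries), from independent cultures, and the labels name no drug or gene deletion in either condition. The control level of 25 mM is that of the series' design text: the labels give the control samples no treatment, but their protocol field repeats 2.5 mM. The labels name the column of low glucose replicates 1 and 2, and the other 4 columns were assigned to conditions by the runs in which the columns are numbered, so these libraries are called by their depth. Control libraries held 9741183, 10126218 and 10190154 reads on genes, and low glucose libraries 10841656 (replicate 1), 10595408 (replicate 2) and 13733477. Values below are normalized counts, that is, reads on a gene divided by a size factor for the library, and values in every library are given in that order. KRT8, KRT18 and KRT19, the keratins of the epithelial origin, were abundant, with 20549 to 46963 normalized counts for KRT8, and fell by 1.01, 0.74 and 0.83 on the log2 scale in low glucose, whereas EPCAM, a further epithelial marker, reached 1 read at most. CDKN2A, which MiaPaCa-2 cells have lost, and the leukocyte and fibroblast markers PTPRC and DCN had no read, and CD68, PECAM1 and COL1A1 reached 15, 3 and 14 reads at most.

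The proteasome degrades proteins that carry a ubiquitin chain. Its core particle is a barrel of alpha rings, which gate the entrance, and beta rings, which hold the protease sites. A regulatory particle caps the barrel: the base unfolds the substrate with a ring of ATPases and the lid removes ubiquitin, while other activators can take the place of this cap. Interferon gamma induces catalytic subunits that replace the constitutive ones and form the immunoproteasome, which changes the peptides available for presentation on HLA class I. Transcription of the constitutive subunits rises through NFE2L1 when proteasome capacity is short.

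Transcripts of the regulatory particle were lower in low glucose, with 17 of 17 base and lid genes past the threshold (limma, adjusted p under 0.05 over 21101 genes). In the core particle 7 of 14 genes were lower and 7 did not pass the threshold. PSMB8, the inducible chymotrypsin-like subunit, was the only one of the 41 called higher. In all, 27 were lower, 1 was higher and 13 did not pass, and the median fold change was -0.33 on the log2 scale, 79.3% of control. Across all genes tested 16.2% were called lower and 14.7% higher, and of those whose mean reached 20 or more, 24.0% were called lower. Most proteasome transcripts are abundant, however, and abundant transcripts as a class were lower in low glucose. Of the 3447 genes whose mean reached 700, 45.7% were called lower, with a median log2 fold change of -0.20. In the core 7 of 14 genes were called lower, with a median of -0.27. PSMA1, PSMA2 and PSMA6, with means of 160, 49.7 and 134, lie below the level of 700. The 11 other core genes had means from 1194.5 to 2927. Of these 11, 7 were lower, with a median of -0.29. The 17 base and lid genes all had means above 700, from 742.7 to 6514, and their median was -0.45. Quantile normalization, which brings the median of these abundant genes to -0.03, left 11 of the 17 called lower, beside 28.7% of the abundant genes, and kept a negative sign in all 17. Library size scaling shifted the median of genes whose mean reached 20 from -0.02 to 0.06 and left 16 of the 17 called. Since counts are shares of the RNA in a library, they do not give the amount of a transcript per cell.

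**Figure D1:**
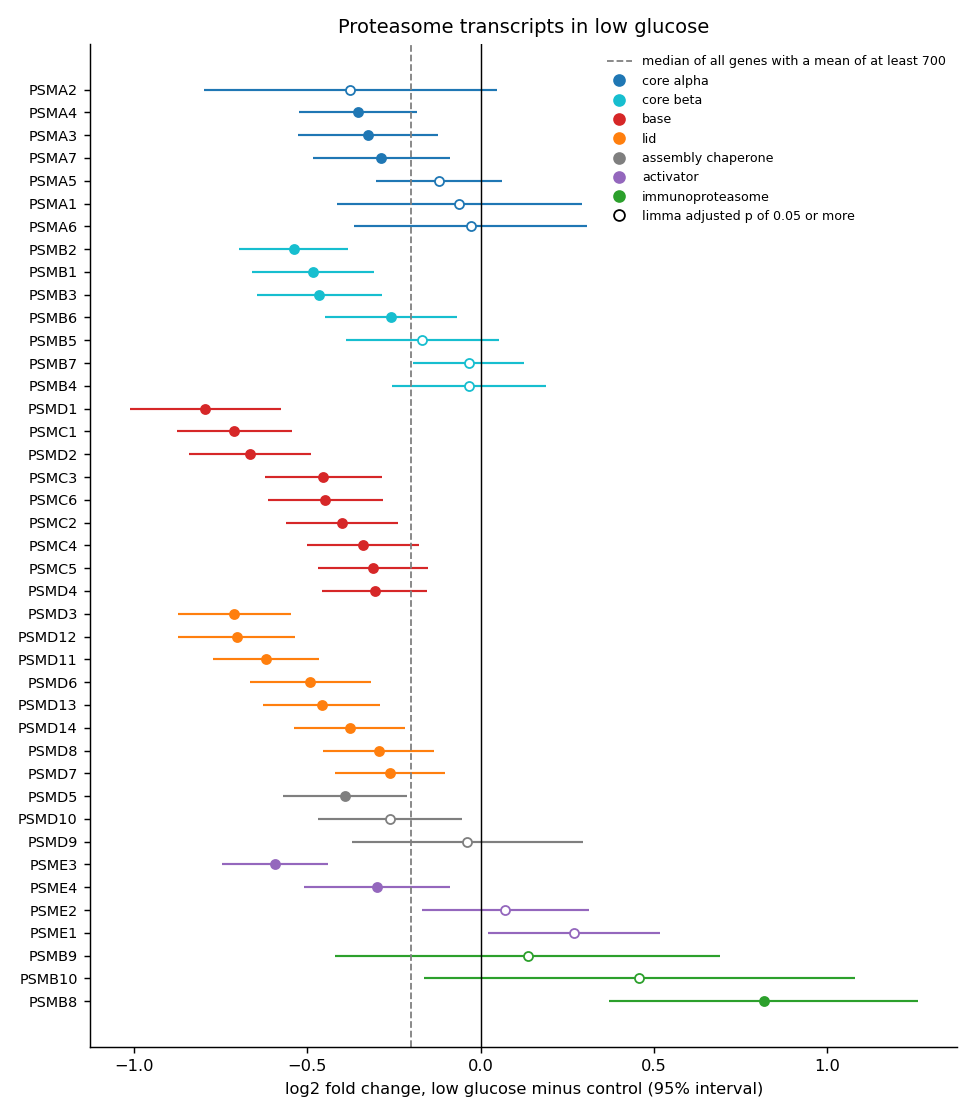
Log2 fold change (low glucose minus control, x axis) of the 41 classed genes, sorted within class, with 95% intervals from limma; filled points passed an adjusted p of 0.05, open points did not, and the dashed line marks the median of all genes whose mean reached 700 (-0.20). All 17 base and lid points are filled and lie at -0.26 or lower, whereas PSMB8 at 0.82 is the only filled point above 0.

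As a share of all counts, the 41 transcripts took 0.599% to 0.651% in the control libraries, compared with 0.497% to 0.502% under low glucose. Base and lid transcripts together took 0.349% to 0.355% under control conditions, compared with 0.256% to 0.259% under low glucose, so the conditions did not overlap. The share of the core transcripts ran from 0.177% to 0.229% under control conditions and from 0.177% to 0.183% under low glucose, and these ranges overlapped. The spread among control libraries was thus wider for the core than for the regulatory particle. The control library of 10126218 reads had the lowest core transcripts, with a median of -0.15 on the log2 scale relative to the control mean, and the library of 10190154 reads the highest, with 0.15. The same libraries differed by transcript length over all genes: the 25% of genes with the shortest transcripts lay at -0.09 in the first and 0.10 in the second, and the 25% with the longest at 0.10 and -0.10. Low glucose libraries also lay higher for the shortest transcripts (0.04 to 0.07) and lower for the longest (-0.10 to -0.08). By the MANE Select transcript, the reference isoform of each gene, the median length was 1004 bases for the core against 1754 for base and lid. The 25% groups and the trend removal took the longest annotated transcript instead, by which not all core genes are short. That length was 5365 bases for PSMA2, 4730 for PSMA6, 4426 for PSMB2, 4378 for PSMA4 and 3815 for PSMA5. The other core genes had 2067 bases or fewer. With the length trend of each library removed, 8 of 14 core and 17 of 17 base and lid genes were called lower.

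**Figure D2:**
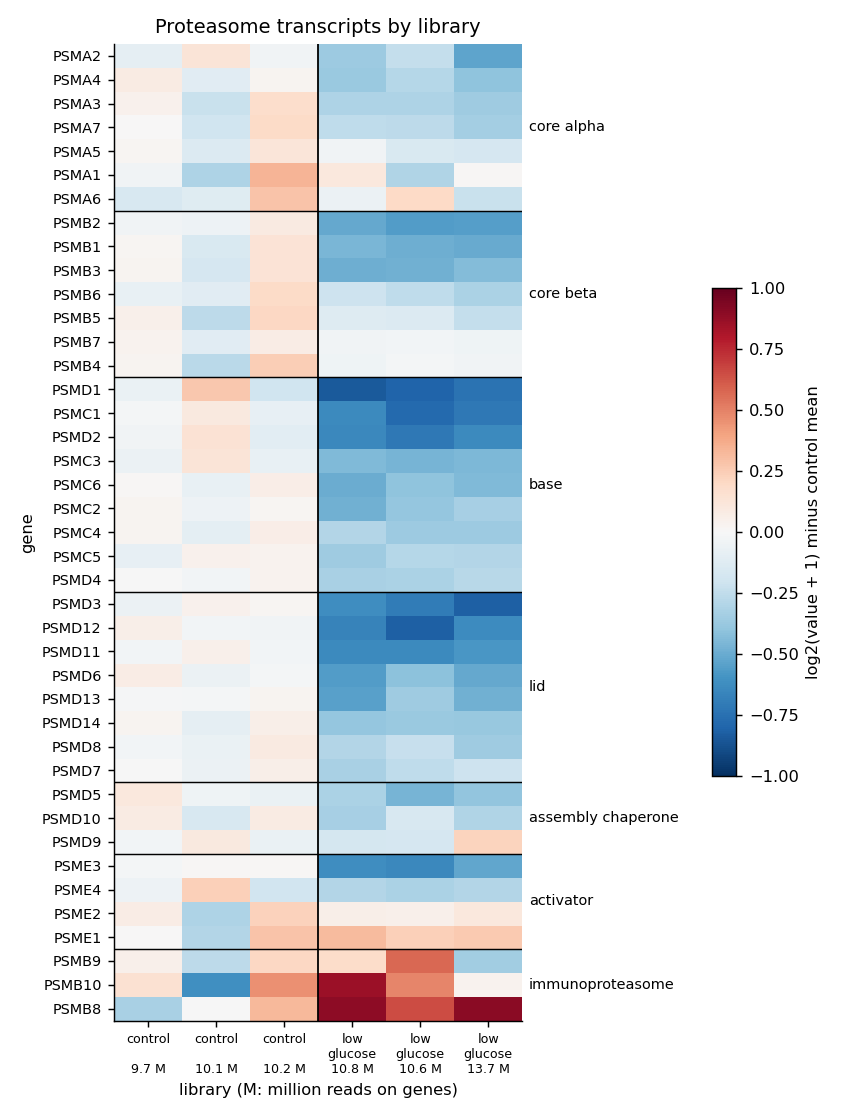
Each row is 1 of the 41 classed genes and each column 1 library, with color for log2(value + 1) minus the mean of the 3 control libraries. Base and lid rows are blue in the 3 low glucose columns, with log2 fold changes from -0.79 to -0.26. Core rows run from -0.54 to -0.03 and so overlap with them in shade. In the core rows the control libraries of 10126218 and 10190154 reads differ from each other.

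In the base, the group median relative to control was -0.48, -0.40 and -0.44 on the log2 scale in the 3 low glucose libraries. All 9 genes fell, to between 57.1% and 80.9% of control. The largest fall of any proteasome gene was that of PSMD1, a large scaffold subunit of the base (ENSG00000173692.13, chr2:231056845-231173116, hg38, plus strand). PSMD1 had 2619.9, 3298 and 2384 normalized counts in control and 1529, 1571 and 1641 in low glucose. The control library of 10126218 reads was the highest, and the lowest control value was still above every low glucose value. The mean went from 2767 ± 475 to 1580.1 ± 56.9 (SD, n = 3 each), a log2 fold change of -0.79 (SE 0.102, adjusted p = 4.36e-05). PSMD2, the other scaffold and the docking site for ubiquitin shuttles (ENSG00000175166.17, chr3:184299198-184309050, plus strand), was the base and lid gene with the highest level per kilobase of transcript (2746 normalized counts per kb in control). It had 7778, 8815 and 7403 normalized counts in control and 5100.2, 4867 and 5123 in low glucose. The groups were far apart for PSMD2 (7999 ± 732 against 5030.0 ± 142, log2 fold change -0.67, SE 0.0823, adjusted p = 3.12e-05).

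The ATPases PSMC1 to PSMC6 form the ring that unfolds the substrate, and all 6 fell. PSMC1 (ENSG00000100764.14, chr14:90256527-90275429, plus strand) fell most, with 2506, 2716 and 2397 normalized counts in control and 1629.5, 1477 and 1543 in low glucose. The 3 low glucose values lay well below the 3 control values (2539 ± 163 against 1549.7 ± 76.6, log2 fold change -0.71, SE 0.0777, adjusted p = 1.07e-05). The transcript of PSMC1 shares 83.2% of its length with exons of NRDE2 on the other strand, and NRDE2 also fell, by 0.63 on the log2 scale. Without the strand setting of the counting, reads of the pair cannot be told apart. PSMC5 shares 13.7% of its transcript with FTSJ3 in the same way, and FTSJ3 was lower too (-0.49). The other ATPases had log2 fold changes from -0.45 (PSMC3) to -0.31 (PSMC5). PSMD4, a ubiquitin receptor between base and lid, had the smallest change of the base (-0.31, adjusted p = 0.00413).

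In the lid, the group median was -0.55, -0.39 and -0.50 on the log2 scale in the 3 low glucose libraries, and all 8 genes fell. PSMD3, a structural lid subunit (ENSG00000108344.15, chr17:39980807-39997959, plus strand), had 3286, 3529.9 and 3480.4 normalized counts in control and 2224, 2116 and 1953 in low glucose. The groups did not overlap (3432 ± 129 against 2098 ± 137, log2 fold change -0.71, SE 0.0764, adjusted p = 9.23e-06). PSMD12, also structural (ENSG00000197170.10, chr17:67337916-67366605, minus strand), had 1678, 1579 and 1573 in control and 1011, 914 and 1043 in low glucose. Its control values were close to each other, and the highest low glucose value was far below them (1610.1 ± 59.0 against 989 ± 67.2, log2 fold change -0.70, SE 0.0789, adjusted p = 1.35e-05). PSMD14, the metalloprotease that cuts the ubiquitin chain off the substrate, fell to 76.9% of control (-0.38, adjusted p = 0.00152). PSMD7, its inactive partner, had the smallest change of the lid (-0.26, adjusted p = 0.0152), and 51.6% of its transcript overlaps a noncoding gene on the other strand. The call of PSMD7 was lost in 6 of 17 alternative fits. The remaining lid genes PSMD6, PSMD8, PSMD11 and PSMD13 lay between -0.62 and -0.29.

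All 3 low glucose values lay below all 3 control values in 17 of the 17 base and lid genes and in 28 of the 41, whereas this held for 30.5% of all genes whose mean reached 20. The share among genes as abundant as base and lid was not determined. Such genes were called lower more often, 45.7% at a mean of at least 700 against 24.0% at a mean of at least 20. The fold changes of the 17 ran from -0.79 for PSMD1 to -0.26 for PSMD7 on the log2 scale. A criterion of 0.5 on the log2 scale kept 8 of the 27 lower calls. Among all genes whose mean reached 20, a share of 0.115 had a log2 fold change of -0.51 or lower, called or not. The share at a mean of at least 700 was not determined.

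Promoter sequence was examined for the antioxidant response element, through which NFE2L1 and NFE2L2 bind, by its core TGACNNNGC on either strand of the 300 bases around each RefSeq start (250 before, 50 after). Of the 41 genes, 36 had such a window in RefSeq (GRCh38.p14), and 13 of them (36.1%) held the core, compared with 16.1% of all genes with a window. The genes of that comparison were not matched to the members in level. The core letters are common and a match is no evidence of binding. Of the 5 genes with the largest falls, PSMD1, PSMD3 and PSMD12 held it, and the stretches around those matches are shown with the core, or its reverse complement, in capitals.
PSMD1 (chr2:231056896-231056916, plus strand): aggaggcgacTGACTGAGCag
PSMD3 (chr17:39980745-39980803, plus strand): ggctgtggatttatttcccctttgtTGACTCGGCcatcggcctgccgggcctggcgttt
PSMD3 (chr17:39980830-39980856, plus strand): gtttgcagctGCTCCGTCAtcgtgcgg
PSMD12 (chr17:67366709-67366767, minus strand): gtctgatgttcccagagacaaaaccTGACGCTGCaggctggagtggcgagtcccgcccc
PSMD3 held 1 match on each strand. The other genes with a match were PSMA4, PSMB3, PSMB9, PSMC4, PSMC5, PSMD5, PSMD9, PSME1, PSME2 and PSME4, and these ranged from -0.47 (PSMB3) to 0.27 (PSME1) in log2 fold change.

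In the core particle all 14 fold changes were negative, but 4 turned positive under library size scaling and 4 under quantile normalization, and none of these had passed the test. The count of 7 lower core genes rested on single libraries: it was 4 without the control library of 9741183 reads, 4 without any 1 of the low glucose libraries, 5 without the control library of 10190154 reads and 10 without that of 10126218 reads. For base and lid the same omissions gave 16 or 17 of 17. The alpha ring, which binds the regulatory particle and holds the gate, had 3 of 7 genes lower: PSMA4 (-0.35), PSMA3 (-0.33) and PSMA7 (-0.29). PSMA1, PSMA2 and PSMA6 had means below 700. Of the 4 other alpha genes 3 were lower, beside 45.7% called lower of all genes whose mean reached 700. The calls of PSMA3 and PSMA7 were lost in 7 and 8 of 17 alternative fits. In low glucose PSMA4 had 78.1% of its control level, PSMA3 79.3% and PSMA7 81.5%. PSMA5 did not pass (-0.12, adjusted p = 0.313). PSMA2 had a fold change of -0.38 on few reads (45 to 55 per library) and did not pass (adjusted p = 0.168).

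The beta ring had 4 of 7 genes lower, beside 45.7% of all genes whose mean reached 700. PSMB2, PSMB1 and PSMB3, which have no protease site, fell by 0.54, 0.48 and 0.47 on the log2 scale, and these calls held in each of 17 alternative fits. PSMB6 passed with a smaller change (-0.26), and PSMB4, the remaining noncatalytic subunit, had 96.7% of control (-0.03, adjusted p = 0.845). The noncatalytic beta subunits were therefore among the core genes that fell most and also among those with the smallest difference. Whether the core differs from the regulatory particle in its response was not tested, since the classes were chosen with the results known, and their medians of -0.27 and -0.45 are given as a description. Without the control library of 10190154 reads the medians were -0.19 (alpha) and -0.16 (beta) in the core and -0.41 (base) and -0.47 (lid) in the regulatory particle.

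PSMA1, PSMA2 and PSMA6 stood apart from the other core subunits in level. Per kilobase of the MANE Select transcript, the reference isoform of each gene, they had 39.2 to 138 normalized counts in control. The 11 other core genes ranged from 322 (PSMA4) to 3349 (PSMA7), although the assembled particle holds each subunit in equal number. The same 3 genes were lowest when the exon union or the longest transcript was taken as length. These 3 share most of their transcript with a readthrough gene annotated on the same strand: 67.0% of PSMA1, 100% of PSMA2 and 81.4% of PSMA6. PSMB10 (56.1%) and PSMD9 (28.8%) share a part in this way, and no other member exceeded 10%. RSEM, a program that estimates transcript levels, is in the study's software list without a stated role, and the sources used here do not say how reads in shared exons were treated for this table, so the levels and fold changes of these 5 genes are uncertain. None of the 5 passed the test, and without them 27 of 36 genes were lower and 1 higher.

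**Figure D3:**
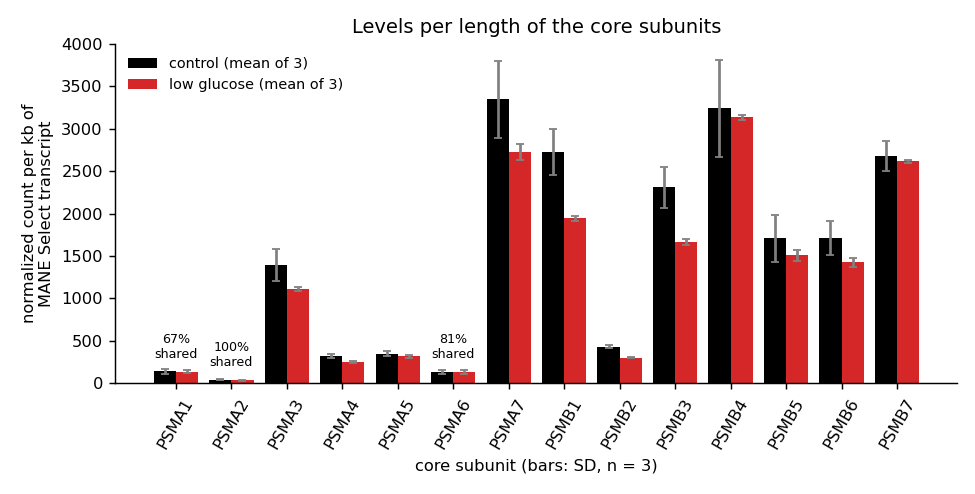
Normalized counts per kilobase of the MANE Select transcript (y axis) for the 14 core subunits, as means of 3 libraries with SD; percentages mark transcripts that share over 10% of their length with another gene on the same strand. PSMA1, PSMA2 and PSMA6 lie at 138 or lower in control and the other 11 at 322 or higher.

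The protease sites of the constitutive particle are in PSMB5, PSMB6 and PSMB7. PSMB5, the chymotrypsin-like subunit (chr14:23016543-23035230), had 1833, 1475 and 2046 normalized counts in control and 1619, 1609 and 1496 in low glucose. The groups overlapped, with a log2 fold change of -0.17 (SE 0.103, adjusted p = 0.239). Without the control library of 10126218 reads, which had the lowest value, the fold change was -0.30 and passed (adjusted p = 0.000995), it passed too with the length trend removed, and it was 0.05 under quantile normalization. PSMB6, the caspase-like subunit (chr17:4796144-4798502), had 1334, 1297 and 1603 in control and 1216, 1180.5 and 1127 in low glucose. All low glucose values lay below the control values (1411 ± 167 against 1175 ± 44.5, log2 fold change -0.26, SE 0.0887, adjusted p = 0.0382), but the call was lost in 8 of the 17 alternative fits. PSMB7, the trypsin-like subunit (chr9:124353465-124415444), had 2702, 2441 and 2774 in control and 2575, 2589 and 2556 in low glucose. Its low glucose values lay inside the control range (log2 fold change -0.03, SE 0.0750, adjusted p = 0.772).

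The 3 subunits of the immunoproteasome rested on few reads, 21 to 106 per library. PSMB8, the inducible counterpart of PSMB5 (ENSG00000204264.11, chr6:32840717-32844679, minus strand), had 33.6, 42.4 and 53.5 normalized counts in control and 79.8, 67.2 and 80.3 in low glucose. All low glucose values lay above the control values, as they did in 25.0% of all genes whose mean reached 20. The mean rose from 43.2 ± 9.96 to 75.8 ± 7.45 (SD, n = 3 each), a log2 fold change of 0.82 (SE 0.208, adjusted p = 0.00802). The call was lost without low glucose replicate 1 and without the low glucose library of 13733477 reads, where the adjusted p reached 0.0518. PSMB8-AS1, on the other strand, shares exon sequence with PSMB8 outside its MANE Select transcript and did not pass the test (0.26, adjusted p = 0.203).

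PSMB9, the counterpart of PSMB6 (chr6:32844136-32859851), had 40.4, 32.3 and 44.9 normalized counts in control and 44.2, 58.3 and 30.3 in low glucose. Its groups overlapped (log2 fold change 0.14, SE 0.260, adjusted p = 0.736). PSMB10, the counterpart of PSMB7 (chr16:67934506-67936864), had 40.4, 23.4 and 50.3 in control and 66.4, 51.4 and 37.1 in low glucose. Here too the groups overlapped, and the wide spread gave a log2 fold change of 0.46 with an SE of 0.291 (adjusted p = 0.256). The 95% intervals of these fold changes, -0.42 to 0.69 for PSMB9 and -0.16 to 1.08 for PSMB10, include 0 and the value of PSMB8 for PSMB10 but not for PSMB9.

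The ratio of each inducible subunit to its constitutive counterpart within a library does not depend on the size factors. PSMB8 amounted to 1.83%, 2.87% and 2.62% of the PSMB5 count in control and to 4.93%, 4.17% and 5.37% in low glucose. The ratio was higher in all 3 low glucose libraries (2.44% ± 0.540 against 4.83% ± 0.605, SD, n = 3), a difference of 0.99 on the log2 scale (exact permutation test, two-sided, p = 0.1, the smallest that 3 against 3 libraries can give; 0.3 after Benjamini-Hochberg adjustment over 3 pairs). PSMB9 to PSMB6 differed by 0.39 on the log2 scale, from 2.77% ± 0.268 to 3.75% ± 1.13 (exact permutation test, p = 0.3, adjusted p = 0.3). PSMB10 to PSMB7 differed by 0.49, from 1.42% ± 0.431 to 2.005% ± 0.563 (exact permutation test, p = 0.3, adjusted p = 0.3). For the latter pairs the ranges of the conditions overlapped, and single libraries moved the differences: PSMB9 to PSMB6 was 0.18 without low glucose replicate 2 and 0.61 with the one of 13733477 reads left out, and PSMB10 to PSMB7 was 0.24 without the control library of 10126218 reads and 0.30 without low glucose replicate 1. In both conditions the inducible transcripts had a few percent of the counts of their counterparts.

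**Figure D4:**
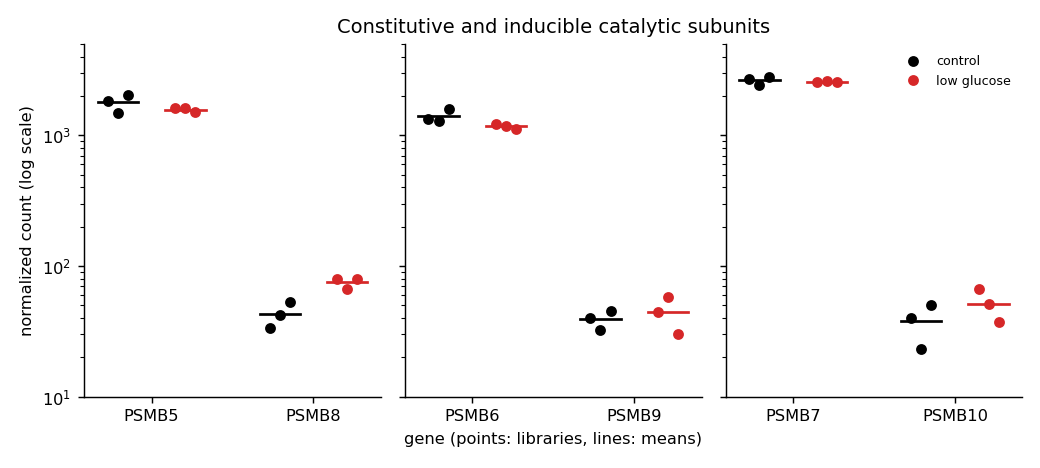
Normalized counts (log scale) of the 3 constitutive catalytic subunits and their inducible counterparts; points are libraries and lines are means of 3. PSMB8 lies between 33.6 and 53.5 in control and between 67.2 and 80.3 in low glucose, whereas the points of PSMB9 and PSMB10 overlap between conditions.

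Of the 4 activators that can replace the regulatory particle, 2 were lower and 2 did not pass, beside 45.7% called lower of all genes whose mean reached 700. PSME1 and PSME2 form the interferon-inducible ring of the cytosol. PSME1 (chr14:24136163-24138967) had 849, 689.9 and 1034 normalized counts in control and 1051, 998 and 1014 in low glucose. The control library of 10190154 reads reached into the low glucose range, and the difference did not pass (log2 fold change 0.27, SE 0.116, adjusted p = 0.0918), although it did after library size scaling, after quantile normalization and without the control library of 10190154 reads. PSME2 (chr14:24143362-24147570) had 963, 738 and 1074 in control and 953, 944 and 984 in low glucose, with full overlap (log2 fold change 0.07, SE 0.113, adjusted p = 0.676).

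PSME3, which forms a ring of its own in the nucleus (ENSG00000131467.11, chr17:42824385-42843760), had 3123, 3178 and 3178 normalized counts in control and 2057, 2025 and 2206 in low glucose. The control values were nearly equal and the fall to 66.3% of control was larger than the spread in either group (3159.5 ± 31.4 against 2096 ± 96.9, log2 fold change -0.59, SE 0.0718, adjusted p = 2.62e-05). PSME4, a single-chain nuclear activator linked to histone turnover (chr2:53864069-53970993), had 1129, 1381 and 1027 in control and 957, 940.4 and 956 in low glucose. It was lower (log2 fold change -0.30, SE 0.0983, adjusted p = 0.0319), but this call was lost in 9 of the 17 alternative fits.

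The 3 assembly chaperones PSMD5, PSMD9 and PSMD10 help to build the base and are absent from the finished particle. PSMD5 (chr9:120815496-120842951) had 997, 897 and 882 normalized counts in control and 743, 669 and 702 in low glucose. It fell without overlap (925 ± 62.4 against 705 ± 37.0, log2 fold change -0.39, SE 0.0836, adjusted p = 0.00252). PSMD10 (gankyrin, chrX:108084207-108091549) had 537, 454 and 537 in control and 403, 455 and 413 in low glucose, so that the highest low glucose value lay just above the lowest control value (log2 fold change -0.26, SE 0.0976, adjusted p = 0.0548). PSMD9 (chr12:121888732-121918297) had 101, 110.3 and 98.4 in control and 91.4, 91.9 and 120.5 in low glucose, with the library of 13733477 reads above the control values and the other two below them (log2 fold change -0.04, SE 0.156, adjusted p = 0.882). The genes that the rule found by name alone did not pass, with -0.27 for PSMC3IP (adjusted p = 0.14) and 0.02 for PSME3IP1 (adjusted p = 0.911).

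The interferon-stimulated response element, bound by factors of the IRF family, was searched by its core, GAAA and GAAA with any 2 bases between them, on both strands of the same promoter windows. It was found in 6 of 36 genes (16.7%), PSMA4, PSMB4, PSMB8, PSMB10, PSME1 and PSME2. This compares with 4.38% of all genes with a window, again not matched in level to those 6 or to the other members. The 4 of the 6 that are known interferon targets are shown, with the core, or its reverse complement, in capitals.
PSMB8 (chr6:32844032-32844061, minus strand): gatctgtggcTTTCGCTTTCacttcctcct
PSMB10 (chr16:67936851-67936896, minus strand): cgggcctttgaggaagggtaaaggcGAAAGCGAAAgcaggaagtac
PSME1 (chr14:24136189-24136218, plus strand): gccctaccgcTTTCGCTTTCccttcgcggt
PSME2 (chr14:24146611-24146663, minus strand): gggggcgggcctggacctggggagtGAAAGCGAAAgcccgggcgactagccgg
A match to these core letters is no evidence of binding. Of these 4, PSMB8 was the only one past the threshold, and the fold changes were 0.82, 0.46, 0.27 and 0.07. That of PSME2 ran from -0.08 to 0.22 in the alternative fits, and that of PSMB10 is uncertain because of its shared exons. PSMA4 and PSMB4, which also hold the core, had -0.35 and -0.03. PSMB9 had no match in its window.

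Among 9 genes of antigen presentation and its control, 3 were higher and 2 lower, beside 14.7% called higher and 16.2% called lower of all genes tested. The 9 had means from 68.0 to 1951, and of all genes whose mean reached 20, 24.0% were called lower. The share called higher at that level was not determined. The class I heavy chains HLA-B (0.82, adjusted p = 3.18e-05) and HLA-C (0.69, adjusted p = 0.000672) rose, with the reservation that reads of such similar genes may be shared between them. IRF1, a transcription factor of the interferon response, rose from 177 ± 17.4 to 233 ± 9.68 normalized counts (0.40, adjusted p = 0.0171). TAP2, a subunit of the peptide transporter, and TAPBP, which loads peptides, were lower (-0.42 and -0.29). TAP1, ERAP1, B2M and NLRC5 did not pass. Of the 5 calls, those of HLA-B and HLA-C held in each of the 17 alternative fits, whereas those of IRF1, TAP2 and TAPBP were lost in at least 1, with adjusted p reaching 0.0829, 0.0581 and 0.265.

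Of 29 genes that assemble, regulate or supply the proteasome, 3 were higher, 11 lower and 15 not past the threshold. Of all genes tested, 14.7% were called higher and 16.2% lower. The median log2 fold change of the 29 was -0.18. Of the 21 among them whose mean reached 700, 10 were lower, near the 45.7% of all genes at that level. The calls of ADRM1, UCHL5, NFE2L1, DDI2 and ZFAND2A held in each of the 17 alternative fits, and those of the 9 other called genes were lost in at least 1. None of the 6 further assembly factors (POMP, PSMG1 to PSMG4 and PAAF1) passed, with values from -0.19 to -0.03. Of the 8 bound factors, all with means of at least 730, 5 were lower, beside the same 45.7%. Among these 5 were the ubiquitin receptor ADRM1 (-0.48, adjusted p = 0.000229) and the deubiquitinases UCHL5 (-0.55, adjusted p = 8.91e-05) and USP14 (-0.32, adjusted p = 0.00347). ADRM1 and UCHL5 bind each other on the regulatory particle and had no overlap between conditions. UBE3C, a ubiquitin ligase on the particle (-0.24), and TXNL1, a thioredoxin-like protein bound to it (-0.28), were also lower, with adjusted p reaching 0.555 and 0.255 in the alternative fits.

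NFE2L1, the transcription factor of proteasome genes, had 2479, 2868 and 2261 normalized counts in control and 4166, 3998 and 3886 in low glucose. Its transcript rose without overlap (log2 fold change 0.67, SE 0.0880, adjusted p = 5.4e-05). DDI2, the protease that cuts NFE2L1 into its active form, had 656, 697 and 554 in control and 404, 391 and 353 in low glucose. DDI2 fell without overlap (-0.73, SE 0.102, adjusted p = 9.55e-05), and NGLY1, which removes the sugars of NFE2L1 before that cut, did not pass (-0.07, adjusted p = 0.63). NFE2L2, the related factor of the oxidative stress response, was higher by a smaller amount (0.23, adjusted p = 0.0328). The counts do not show how much active NFE2L1 protein was present.

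Of 7 shuttle and segregase genes 4 were lower, beside 45.7% of all genes whose mean reached 700. Only ZFAND2A, with a mean of 173, lay below that level. The 4 lower genes were VCP, the ATPase that extracts ubiquitinated proteins (-0.41, adjusted p = 0.00158), UBQLN2 (-0.36), UBQLN1 (-0.29) and RAD23B (-0.27). UBQLN2, UBQLN1 and RAD23B carry ubiquitinated proteins to the proteasome. Each of the 4 calls was lost in at least 1 alternative fit, with adjusted p reaching 0.0963 (VCP), 0.0829 (UBQLN2), 0.228 (UBQLN1) and 0.266 (RAD23B). ZFAND2A, a stress-induced protein that binds the regulatory particle, rose from 112 ± 21.3 to 235 ± 38.1 (1.07, adjusted p = 0.000152), the largest change on the list. UBA1, the main activating enzyme of ubiquitin, was lower (-0.29, adjusted p = 0.0168). The ubiquitin genes UBB and RPS27A did not pass.

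**Figure D5:**
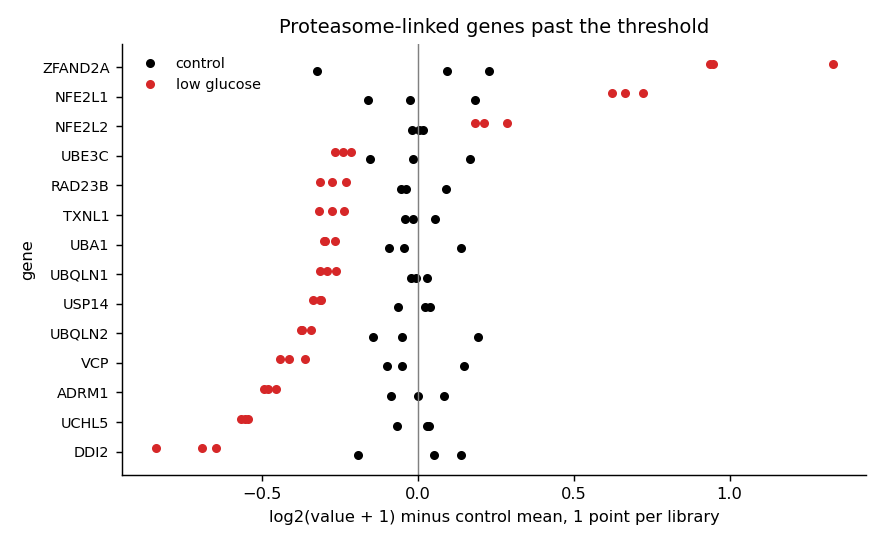
The 14 of 29 proteasome-linked genes past the threshold, with log2(value + 1) minus the control mean on the x axis and 1 point per library (black, control; red, low glucose). The 11 lower genes lie left of their control points, and ZFAND2A (1.07) and NFE2L1 (0.67) lie farthest to the right.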

How the data were processed

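RNA of 6 libraries of MiaPaCa-2 cells was sequenced by the authors from a strand-specific kit, trimmed with Trim Galore and mapped to hg38 with STAR 2.7.0e. RSEM is in the study's software list with no stated role; which tool counted the reads of this table, its strand setting and its annotation are not given in the sources used here. The unit is a signal: the authors deposited reads per gene after division by 1 size factor per library. All values (100%) in a column were a whole number of steps of 1 size (tolerance 0.01 read), which gave the reads back. The labels name 2 columns, 4 were grouped by the runs of column names, and 0 belonged to other samples. Symbols, transcript lengths and overlaps came from Gencode 44, to which 99.4% of identifiers matched.

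Because the table holds normalized values, limma 3.58.1 (R 4.3.3; lmFit, eBayes with trend, two-sided) was run on log2(value + 1) of the 21101 genes whose mean reached 1, with Benjamini-Hochberg adjustment over all of them and a threshold of 0.05. Fold changes are on the log2(value + 1) scale and so understate those of low genes. Ratios of subunits were compared with exact permutation tests. edgeR 4.0.16 and DESeq2 1.42.0 were run on the recovered reads. The procedure was tested on simulated data. Alternatives covered scaling, filter, pseudocount, variance trend, a fold criterion and each library left out. Removal of length and GC trends, exclusion of genes with shared transcripts and MANE Select lengths were added after the data were seen.

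The members, classes and lists of linked genes were chosen with earlier results of these data known, and some listed genes are not reported here. All members are named by class, with values in every library for the catalytic subunits, activators, assembly chaperones and the 5 largest falls and rises past the threshold, and linked genes past the threshold are named with values. The smallest p of a permutation of 3 against 3 libraries is 0.1.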

Additional observations from a re-analysis of the deposited data

How the results depend on the processing

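Of the 28 members past the threshold, 16 kept their call in all 17 alternative fits (11 of the 17 base and lid genes) and none changed direction; edgeR and DESeq2 on recovered reads each called 27 lower and 1 higher. Quantile normalization and a fit without a variance trend each left 17 members lower, and a fold criterion of 0.5 left 8. Members called higher were 2 under library size scaling and 2 under quantile normalization. Linked genes called lower numbered 4 under quantile normalization, 5 without a variance trend and 2 with the fold criterion, and those called higher 5, 2 and 2 under the same settings. Class medians moved under library size scaling to -0.37 (base), -0.39 (lid) and -0.18 (assembly chaperones), under quantile normalization to -0.13 (core alpha), -0.085 (core beta), -0.28 (base), -0.34 (lid) and 0.042 (activators), and with the GC trend removed to -0.41 (base). The cause was not tested.

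Members that had not passed turned sign under library size scaling (PSMA1 0.019, PSMA6 0.052, PSMB4 0.048, PSMB7 0.047, PSMD9 0.042), under quantile normalization (PSMA5 0.048, PSMB4 0.13, PSMB5 0.046, PSMB7 0.13, PSMB9 -0.092, and the ratio of PSMB9 to PSMB6 -0.00619), under edgeR (PSMD9 0.0049), and with the length or GC trend removed (PSMA6 0.0051 and 0.014). The trend removals were chosen after seeing the data.

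Leaving out each library in turn gave 22 to 31 members lower and 0 to 2 higher, with PSMB8 lost without low glucose replicate 1 or the library of 13733477 reads and PSME1 added without the control library of 10190154 reads. Linked genes ranged from 7 (without the library of 13733477 reads) to 15 lower and from 2 (without the control library of 9741183 reads or any 1 low glucose library) to 4 higher, and the assembly chaperone median from -0.34 to -0.22. Members that turned sign ranged from -0.22 to 0.11 (PSMA1), -0.14 to 0.11 (PSMA6), -0.17 to 0.088 (PSMB4), -0.089 to 0.0031 (PSMB7), -0.17 to 0.029 (PSMD9), -0.082 to 0.19 (PSME2), -0.083 to 0.38 (PSMB9) and -0.060 to 0.060 (PSME3IP1). No paired analysis was possible because only low glucose columns, and 2 of them, are labelled with a replicate number. Few reads (21 to 106 per library) limit the immunoproteasome genes.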
